A study of Homo sapiens with 12 samples.

Results

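The 17q23 segment is a stretch of the long arm of human chromosome 17 that is gained in many breast cancers, and also in the HER2-positive line BT474, an established line from a human breast carcinoma. Its members here are 40 named protein-coding genes, from RAD51C to SMARCD2, out of 26485 genes in the table. They were chosen by name and position, with earlier results of these libraries known. All 40 matched RefSeq coordinates on GRCh38.p14 (hg38), and together they span 5.15 Mb, chr17:58692573-63842685. Of the 40, 37 had at least 1 normalised read count in at least 3 libraries and were tested, while CA4, TBX4 and NACA2 stayed below that level.

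mRNA was sequenced from wild-type BT474 cells in 4 groups of 3 libraries each. Control cells were taken at day 0. Treatment was with 1 µM lapatinib, which blocks the kinase activity of HER2 and EGFR. Cells surviving at day 9 are the drug-tolerant persisters (DTP), those growing out at month 6 the drug-tolerant expanding persisters (DTEP), and those of month 9 the long-term resistant (LR) cells. The treatment label of Control also reads lapatinib at 1 µM, and Control was taken as untreated because its titles name it Control at day 0. A single cell line was used, and the libraries of a group are described as technical replicates and also as plates kept in parallel, so p-values measure only the spread between these libraries.

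A gained chromosome segment carries extra copies of its genes, and many of them are then transcribed at higher levels together. Genes in such a segment have unrelated roles, so a joint change of neighbours differs from a change of one pathway, whose genes lie on many chromosomes. The 17q23 segment is best known for PPM1D, a phosphatase that restrains p53, RPS6KB1, the S6 kinase downstream of mTOR, TBX2, a repressor of senescence genes, and the DNA repair genes RAD51C and BRIP1. DNA copy number was not measured here, and its part in the differences below was not tested.

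Values are normalised read counts, which are CPM values whose library size was corrected by a TMM factor. A level of 3 reads is 0.124 to 0.173 normalised read counts, depending on the library, over depths of 16383363 to 25030482 assigned reads. Changes are log2 differences of the value plus 1, tested with limma over 13794 genes. Genes are said to rise or fall at an adjusted p below 0.05. The defining luminal markers were present, since all 8 markers listed (ERBB2, EPCAM, KRT8, KRT18, KRT19, CDH1, GATA3 and FOXA1) reached 1 normalised read count in each group. Control libraries had a summed level of 10920 to 11640, DTP libraries of 13190 to 15560, DTEP libraries of 5182 to 6745 and LR libraries of 4657 to 6240. Most of this sum was ERBB2 in Control, at 6356 to 6833, against 1244 to 2103 in DTEP. The markers did not share 1 direction, since CDH1 levels were 1094 to 1146 in Control and 88.9 to 150 in DTEP, whereas GATA3 levels were 183 to 198 and 943 to 1311. The fibroblast markers COL1A2, DCN and LUM (3 of 4 listed), the endothelial markers PECAM1 and CDH5 (2 of 3) and the leukocyte markers PTPRC, CD3E and CD14 (3 of 3) stayed below 1 in all 12 libraries. The other fibroblast marker, COL1A1, was at 48.1 to 61.7 over Control and DTP and at 79.8 to 130.4 over DTEP and LR, and the other endothelial marker, VWF, was at 7.77 to 8.57 over Control and at 1.67 to 2.35 over DTP, and was below 1 in DTEP and LR. Of the 2 mesenchymal markers, VIM stood at 57.6 to 59.4 over Control libraries and 84.3 to 97.9 over those of DTP, but at 0.112 to 10.7 over DTEP and at 0 in each LR library, and ZEB1 was below 1 outside LR, where it was at 1.07 to 1.35. Their part in the results was not tested. In such bulk samples, fewer cells of a type and less RNA per cell cannot be told apart.

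In DTEP and LR cells the segment was divided by position. Every tested member from RAD51C to TBX2, 20 members in order, was lower than in Control in both groups, whereas most members from METTL2A to SMARCD2 were higher. In DTEP against Control, 21 members of 37 fell, beside 28.7% of all genes tested, and 10 rose, beside 29.5%. Among these 10, MRC2 passed the filter only through DTEP and LR libraries, so a difference was built into its inclusion. In LR against Control, 21 fell, beside 32.6%, and 10 rose, beside 30.2%. By more than 4-fold (a log2 change beyond 2 or -2), 7 members fell in DTEP, beside 6.2%. They were RAD51C, TRIM37, SKA2, PRR11, SMG8, CLTC and TBX2. In LR 8 fell by as much, beside 7.8%, with GDPD1 and DHX40 in and TRIM37 out, and 0 rose by limma, beside 5.03%, with 1 by edgeR and 1 by DESeq2. The median log2 change of the 37 members was -1.18 in DTEP and -1.33 in LR, whereas it was 0.02 and -0.03 over all genes tested. Both comparisons share the Control libraries and are not independent of each other.

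The first 20 members had log2 changes between -3.17 and -0.81 in DTEP, and none of these 20 lost its call in DTEP or LR against Control under any alternative fit that was run. The 10 members from CYB561 onwards included none that fell in DTEP, with 8 that rose and 2, DCAF7 and LIMD2, that did not pass. In LR the run of lower members reached 1 gene further, to BRIP1, and none of the 16 members from INTS2 onwards fell. Beyond TBX2, TANC2 was the only tested member that fell in DTEP. Across the 37 members, MRC2 included, position along the segment and the log2 change had a Pearson's r of 0.88 and a Spearman's rho of 0.88 in DTEP, and of 0.91 and 0.92 in LR. These are descriptions across genes that share libraries and neighbours, not independent replicates. In DTP the same values were 0.24 and 0.27.

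**Figure D1:**
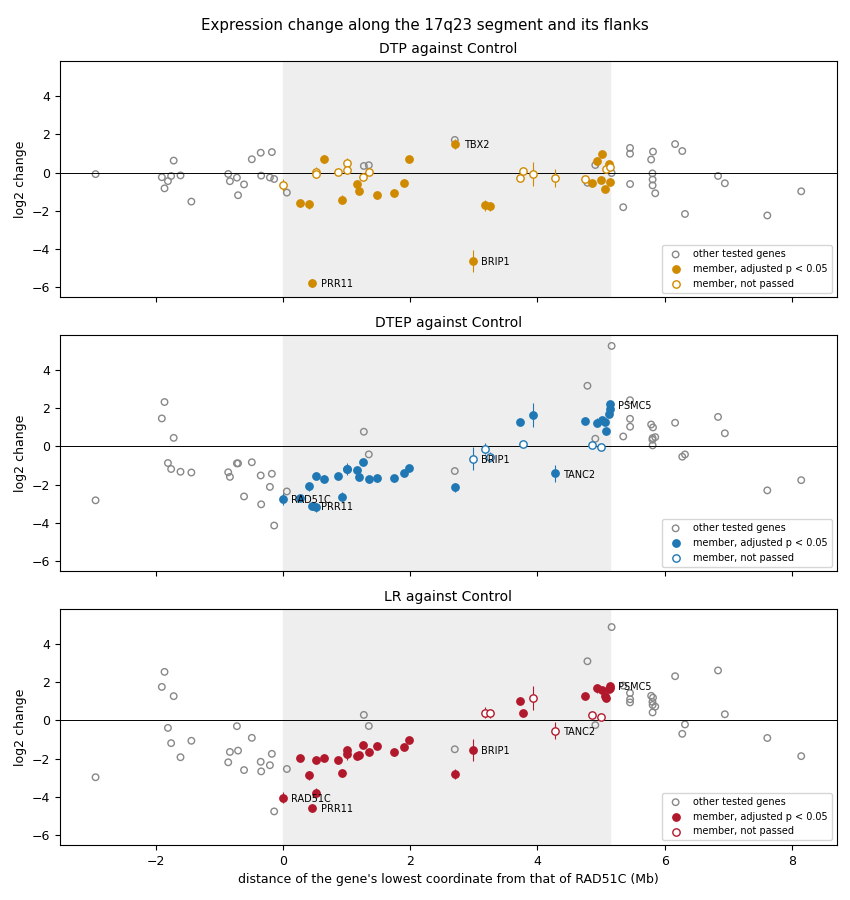
The log2 change against Control (vertical axis, bars are SE) of each tested gene is plotted against its distance in Mb from RAD51C (horizontal axis), in 3 panels for DTP, DTEP and LR, with 3 libraries a group. Coloured points are the 37 tested members (open where the adjusted p was 0.05 or more) on a grey band, and grey rings are other tested genes. In DTEP and LR the members run from negative values on the left to positive values on the right, with TANC2 below its neighbours, whereas in DTP only PRR11 and BRIP1 lie far below the rest.

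By stretches of 1 Mb, which also hold 6 tested genes not among the members, the median log2 change in DTEP against Control was -2.49 over the first Mb. There 10 of 10 tested genes fell, beside 28.7% of all genes tested. The median was -1.20 over the second, where 11 of 12 fell (MIR4737, which lies within HEATR6, among them), and -1.29 over the third, which held only 3 tested genes. In these stretches PPM1E, MIR4737 and TBX2-AS1 passed the filter only through Control or DTP libraries. A difference was therefore built into their inclusion. The fourth, the fifth and the sixth stretch had medians of 0.11, 0.81 and 1.37, and in the sixth 6 of 7 tested genes rose, beside 29.5%. The medians in LR were -2.65, -1.47, -1.56, 0.40, 0.79 and 1.56 in the same order. In the first 2 stretches and the last 2, no DTEP or LR library overlapped the Control libraries in these medians.

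The same sides held beyond the ends of the segment. Over all genes tested, 28.7% fell and 29.5% rose in DTEP against Control, and 32.6% and 30.2% in LR. In the 3 Mb before RAD51C, 16 of 19 tested genes fell in DTEP and 15 of 19 in LR, with medians of -1.35 and -1.65. In the 3 Mb after SMARCD2, 9 of 18 rose and 3 fell in DTEP, with a median of 0.61, and 12 rose and 3 fell in LR, with a median of 0.95. Among those that rose in DTEP, TCAM1P, AXIN2 and CEP112 passed the filter only through DTEP or LR libraries. Among those that fell, SEPT4 before the segment and CACNG5 after it passed only through Control or DTP libraries. A difference was therefore built into the inclusion of all of these genes. The small RNA genes SNORD104, MIR3064 and MIR5047 lie within SNHG25 or DDX5 but were counted apart from them. Over the remaining 728 tested genes of chromosome 17 the medians were -0.27 and -0.33. For comparison, 13 of 13 tested genes around ERBB2, which lies in another gained segment of this chromosome arm, fell in both groups (medians -2.35 and -2.82), and so did 11 of 13 tested genes of a 20q13 list (medians -2.21 and -2.54). These lists were drawn up with earlier results of the same libraries known, so their counts are descriptions. Of the 13 genes around ERBB2, PPP1R1B passed the filter only through Control libraries, so a difference was built into its inclusion.

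**Figure D2:**
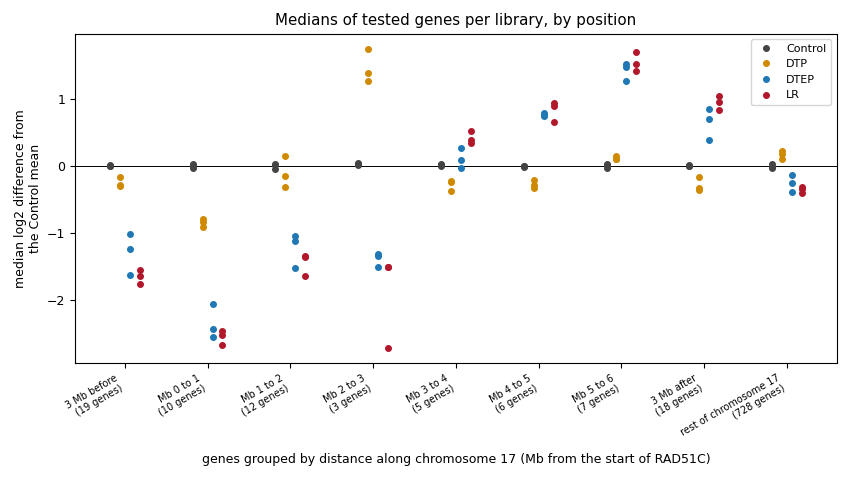
Each point is 1 library, and its height is the median log2 difference from the Control mean over the tested genes of a stretch of chromosome 17. The horizontal axis gives the stretches in Mb from RAD51C, with the number of genes, then both flanks and the rest of the chromosome. DTEP and LR points lie below 0 before and over the first 3 stretches and above 0 over the last 2 and after them.

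At day 9 the segment was not divided in this way. In DTP against Control 16 members fell, beside 28.8% of all genes tested, and 6 rose, beside 25.2%, with a median of -0.28 against -0.01 over all genes. By more than 4-fold only PRR11 and BRIP1 fell, beside 3.9%, and 0 rose, beside 1.01%, by limma. The members that fell were spread from TRIM37 to SMARCD2, and those that rose were YPEL2, BCAS3, TBX2, MAP3K3, STRADA and FTSJ3. The calls of TUBD1, PPM1D, DCAF7, LIMD2, MAP3K3 and FTSJ3 in this comparison were lost without one or another Control or DTP library, at an adjusted p of up to 0.135. Those of MAP3K3 and FTSJ3 were also lost with no filter or no trend, and whichever Control or DTP library was left out. Without 1 of those libraries 12 to 16 members fell and 4 rose, and with only the 6 libraries compared 20 fell and 9 rose. From DTP to DTEP 19 members fell, beside 32.6%, and 16 rose, beside 35.7%, and the last 10 members all rose. The 16 include MRC2, whose inclusion rested on DTEP and LR libraries. The calls of TUBD1, USP32, APPBP2, TANC2, MRC2, MAP3K3, LIMD2 and STRADA in this step were lost without one or another library, at an adjusted p of up to 0.149. By more than 4-fold RAD51C, SMG8, YPEL2 and TBX2 fell, beside 7.02%, and PRR11, BRIP1, CCDC47 and SMARCD2 rose, beside 8.13%. From DTEP to LR only RAD51C and PRR11 fell, beside 4.31%, and TRIM37 and MED13 rose, beside 3.04%, with 0 members past 4-fold in either direction by limma, beside 0.457% lower and 0.225% higher. The counts of members that fell and rose in this step, 2 and 2, depended on single libraries. Without DTEP replicate 3, 13 fell and 6 rose. With only the 6 libraries compared in the fit, 0 fell and 0 rose, and other values are given under the processing alternatives. Past 4-fold, the counts stayed at 0 lower and 0 higher whichever library was left out. Shares of all genes tested were not counted in the refits of this paragraph. DTEP replicate 3 lay within the range of the LR libraries for 15 of the 37 members, against 7 for DTEP replicate 1 and 8 for DTEP replicate 2. The matching shares of all genes tested were not counted. A likeness of the members alone therefore cannot be told from one of the whole library. Replicates were closest in Control, where the median SD of a member (log2) was 0.04, against 0.18 for DTP, 0.27 for DTEP and 0.17 for LR.

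**Figure D3:**
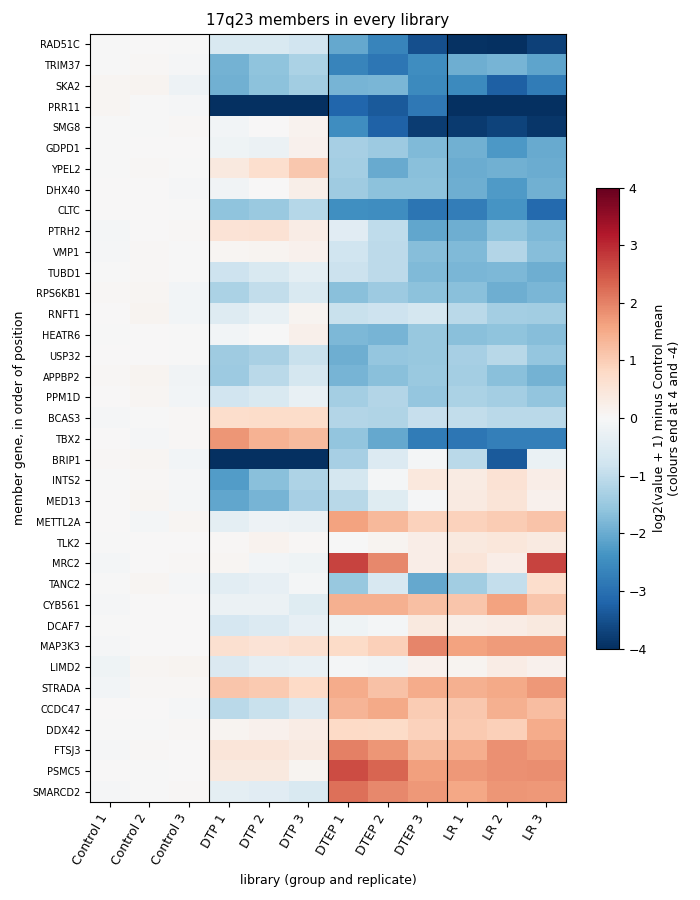
Colour gives log2(value + 1) minus the Control mean for the 37 tested members (rows, in order of position) in all 12 libraries (columns), and ends at 4 and -4. The DTEP and LR columns are blue from RAD51C to TBX2 and mostly red from METTL2A down, and the DTP columns are dark blue only at PRR11 and BRIP1.

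Of the members that act in genome maintenance and cell division, PRR11 and BRIP1 changed most at day 9, while RAD51C fell from DTP onwards. PRR11, a proline-rich protein needed for cell cycle progression, lies at chr17:59155746-59206709 on the forward strand. Its levels were 474, 448 and 436 (Control), 6.11, 7.65 and 8.52 (DTP), 49.5, 43.6 and 61.7 (DTEP) and 17.95, 13.3 and 24.1 (LR). The 4 groups did not overlap, and DTP was lowest. The log2 change was -5.76 (SE 0.20, adjusted p = 2.51e-08) in DTP against Control and 2.64 (SE 0.20, adjusted p = 4.15e-07) from DTP to DTEP. PRR11 then fell by 1.46 on the log2 scale from DTEP to LR (SE 0.20, adjusted p = 0.00551), a call lost with only the 6 libraries compared (adjusted p = 0.266). DTEP and LR cells held 8.77 and 24.5 times less than Control.

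BRIP1, a helicase that works with BRCA1 in DNA repair, lies at chr17:61679139-61863528 on the reverse strand. It had levels of 80.3, 81.05 and 71.5 (Control), 1.88, 2.32 and 2.48 (DTP), 30.5, 52.6 and 74.1 (DTEP) and 36.5, 6.7 and 64.1 (LR). All DTP libraries were below all others, DTEP ranged up to within the Control range, and the LR libraries differed widely among themselves. On the log2 scale it changed by -4.61 (SE 0.59, adjusted p = 6.57e-05) in DTP and 3.97 (SE 0.59, adjusted p = 7.92e-05) from DTP to DTEP. In DTEP against Control it was -0.64 (SE 0.59, adjusted p = 0.37), with an interval of -1.93 to 0.64. BRIP1 was lower in LR than in Control at -1.56 (SE 0.59, adjusted p = 0.0355), a call lost with DESeq2 or edgeR or no filter or only the 6 libraries compared and without any one Control library or LR replicate 2 (adjusted p from 0.0544 to 0.102). Without LR replicate 2 the log2 change was -0.67.

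PRR11 and BRIP1 moved at day 9 and month 6 beside the proliferation genes. Over 10 listed genes (MKI67, CCNB1, CCNA2, BUB1, PLK1, MCM2, MCM6, CDC20, RRM2 and TYMS) Control libraries summed to 1615 to 1643, DTP libraries to 119.0 to 128.1, DTEP libraries to 1572 to 2809 and LR libraries to 515.7 to 1202. All 10 fell in DTP, beside 28.8% of all genes tested, with a median of -4.40. From DTP to DTEP all 10 rose, beside 35.7%, with a median of 4.67. In DTEP against Control 4 of them rose, beside 29.5%, and 1 fell, beside 28.7%, with a median of 0.33, whereas PRR11 was -3.12 there. The part of proliferation in the PRR11 and BRIP1 levels was not tested.

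SKA2, a subunit of the complex that holds chromosomes to spindle microtubules, starts 560 bases from PRR11 on the opposite strand (chr17:59109857-59155186). Its levels were 395, 404 and 326 (Control), 97.2, 118 and 141 (DTP), 101, 105 and 62.5 (DTEP) and 62.9, 38.1 and 52.95 (LR). Control was highest, and DTP and DTEP overlapped, as did DTEP and LR. SKA2 fell by 1.66 in DTP against Control on the log2 scale (SE 0.23, adjusted p = 1.16e-04), where PRR11 fell by 5.76. From DTP to DTEP SKA2 was at -0.42 (SE 0.23, adjusted p = 0.121), with an interval of -0.93 to 0.08, where PRR11 rose. In LR against Control SKA2 stood at -2.87 (SE 0.23, adjusted p = 5.42e-07). The ratio of PRR11 to SKA2 was 1.11 to 1.34 over the Control libraries and 0.0605 to 0.0648 over those of DTP. DTEP libraries had ratios of 0.416 to 0.988 and LR libraries of 0.286 to 0.455, so the pair did not keep one proportion.

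The promoters of this pair and of BRIP1 are shown because PRR11 and BRIP1 had the largest falls at day 9 and SKA2 starts beside PRR11. BRIP1 was added after its values were seen. RefSeq windows run from 250 bases before to 50 bases after a start, and 32 of the 40 members have one. Capitals mark 3 motifs that were searched for on both strands, so that a match on the opposite strand is printed as its reverse complement. They are the cell cycle homology region CHR (TTTGAA), a site of cell cycle repression in quiescent cells, the CCAAT box (CCAAT), a site of NF-Y, and an E2F core (GCGGGAA or GCGCGAA). No match of one motif overlaps a match of another in these windows.
The SKA2 window is chr17:59155137-59155436 (reverse strand), the PRR11 window is chr17:59155496-59155795 (forward strand) and the BRIP1 window is chr17:61863479-61863778 (reverse strand), each written 5′ to 3′ along its gene.
SKA2: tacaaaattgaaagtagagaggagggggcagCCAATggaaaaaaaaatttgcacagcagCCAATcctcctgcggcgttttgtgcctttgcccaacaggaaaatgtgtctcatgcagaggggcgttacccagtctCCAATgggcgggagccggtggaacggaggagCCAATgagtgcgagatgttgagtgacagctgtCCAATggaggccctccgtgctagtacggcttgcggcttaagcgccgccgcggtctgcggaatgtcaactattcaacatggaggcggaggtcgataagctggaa
PRR11: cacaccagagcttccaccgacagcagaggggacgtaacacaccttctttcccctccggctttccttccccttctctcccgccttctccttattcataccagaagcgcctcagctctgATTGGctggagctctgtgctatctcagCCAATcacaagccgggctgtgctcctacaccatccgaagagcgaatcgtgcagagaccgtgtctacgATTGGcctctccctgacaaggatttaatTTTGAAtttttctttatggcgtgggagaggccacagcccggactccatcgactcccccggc
BRIP1: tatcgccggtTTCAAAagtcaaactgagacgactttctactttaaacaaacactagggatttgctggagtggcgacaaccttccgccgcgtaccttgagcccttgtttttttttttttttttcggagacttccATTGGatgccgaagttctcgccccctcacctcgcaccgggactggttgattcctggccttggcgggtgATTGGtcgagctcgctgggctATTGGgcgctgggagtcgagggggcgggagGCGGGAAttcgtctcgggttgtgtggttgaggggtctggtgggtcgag
The PRR11 window holds a CHR match that begins 11 bases before the start and CCAAT boxes at 39, 106 and 133 bases before it. The SKA2 window holds 5 CCAAT boxes and no CHR or E2F match. The BRIP1 window holds a CHR match 240 bases before the start, CCAAT boxes at 28, 49 and 117 bases before it and an E2F core 2 bases after it. CHR letters occurred in 15.2% of all 35116 promoter windows, the CCAAT box in 34.6% and an E2F core in 8.54%. Among the members with a window, 4 held a CHR match, 13 a CCAAT box and 7 an E2F core. A match describes these letters only and does not show binding.

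RAD51C, which acts in the repair of DNA breaks, is the first gene of the segment (chr17:58692573-58735611). Its levels were 139, 141 and 139.8 (Control), 91.9, 91.3 and 82.7 (DTP), 33.1, 21.4 and 11.3 (DTEP) and 8.15, 5.53 and 9.5 (LR). Each group lay below the one before it without overlap. The difference between DTP and Control did not pass, at -0.66 (adjusted p = 0.0799). RAD51C fell by 2.09 from DTP to DTEP on the log2 scale (SE 0.30, adjusted p = 5.42e-05) and stood at -4.04 (SE 0.30, adjusted p = 2.52e-07) in LR against Control, 18.1-fold lower. From DTEP to LR it was at -1.30 (adjusted p = 0.0293), a call lost with only the 6 libraries compared and without any one Control library or DTP replicate 2 or DTEP replicate 1 or 2 or LR replicate 1 or 2 (adjusted p from 0.0515 to 0.301).

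PPM1D, the p53 phosphatase, had levels of 101, 105 and 92.3 (Control), 58.2, 65.3 and 81.2 (DTP), 37.9, 43.2 and 33.2 (DTEP) and 40.5, 38.3 and 32.4 (LR). Control was highest and DTEP and LR overlapped, with log2 changes of -1.37 (adjusted p = 1.28e-05) in DTEP and -1.40 (adjusted p = 8.60e-06) in LR against Control. TUBD1, delta-tubulin of the centrioles, had levels of 83.1, 86.2 and 82.8 (Control), 46.4, 54.4 and 63.7 (DTP), 46.4, 39.9 and 24.2 (DTEP) and 22.9, 23.7 and 21.1 (LR), and its log2 changes against Control were -1.22 (adjusted p = 3.08e-04) in DTEP and -1.85 (adjusted p = 8.93e-06) in LR. TLK2, a kinase that promotes chromatin assembly during replication, lies among the higher members but had close levels in 3 groups, 26.2, 26.6 and 26.7 (Control), 27.6, 29.5 and 27.4 (DTP), 26.1, 28.3 and 32.1 (DTEP) and 35.1, 36.8 and 33.9 (LR). Its log2 difference in DTEP against Control was 0.11 (SE 0.13, adjusted p = 0.469), with an interval of -0.17 to 0.39. The LR libraries were above all others. The log2 change in LR against Control was 0.40 (adjusted p = 0.0168), a call lost without Control replicate 1 or 2 (adjusted p from 0.0502 to 0.0565). In LR against DTEP it did not pass, at 0.29 (adjusted p = 0.138).

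Of the kinase signalling members, RPS6KB1 fell and MAP3K3 and STRADA rose, and they lie at opposite ends of the segment. RPS6KB1 (chr17:59893121-59950574), the S6 kinase that promotes protein synthesis, had levels of 326, 332 and 296 (Control), 131, 161 and 207 (DTP), 98.9, 115 and 101 (DTEP) and 98.6, 80.7 and 89.2 (LR). Control was highest, DTP came next, and DTEP and LR did not overlap but were close. The fitted change (log2) was -0.95 (SE 0.16, adjusted p = 4.16e-04) in DTP, -1.59 (adjusted p = 4.32e-06) in DTEP and -1.82 (adjusted p = 1.11e-06) in LR against Control. MAP3K3, a kinase upstream of ERK5 and other MAP kinases, had levels of 33.7, 35.6 and 35.7 (Control), 55.1, 51.2 and 54.5 (DTP), 60.5, 68.95 and 138 (DTEP) and 109.5, 116 and 117 (LR). DTEP replicate 3 stood apart from the other DTEP libraries and above LR. The log2 change against Control was 1.23 (adjusted p = 7.41e-04) in DTEP and 1.68 (SE 0.23, adjusted p = 5.85e-05) in LR. STRADA, the pseudokinase partner of LKB1, had levels of 27.04, 30.3 and 29.95 (Control), 64.5, 60.5 and 50.7 (DTP), 83.1, 66.3 and 82.3 (DTEP) and 80.2, 85.7 and 98.2 (LR). It rose already in DTP at 0.98 (SE 0.14, adjusted p = 1.60e-04) and stood at 1.56 (adjusted p = 1.60e-06) in LR. DCAF7, a scaffold of DYRK1A and other kinases, had levels of 172, 175 and 175 (Control), 108, 118 and 139 (DTP), 154, 166 and 231 (DTEP) and 203, 212 and 229 (LR). The log2 difference in DTEP against Control was 0.05 (adjusted p = 0.782), with an interval of -0.28 to 0.39, after a change of -0.52 (adjusted p = 0.013) in DTP, a call lost without DTP replicate 1 (adjusted p = 0.0578). MAP3K3 and LIMD2 overlap on opposite strands over 6.84% and 8.80% of their exon length, and reads of such overlaps cannot be assigned to one gene without strand.

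Of the members that act in ubiquitin and protein turnover, 4 fell and 1 rose in both DTEP and LR against Control, beside 28.7% lower and 29.5% higher of all genes in DTEP and 32.6% and 30.2% in LR. TRIM37 (chr17:58967201-59106880), a ubiquitin ligase that limits centrosome assembly, had levels of 474, 488 and 466 (Control), 128, 154 and 196 (DTP), 74.9, 63.4 and 84.9 (DTEP) and 121, 130.0 and 111 (LR). Control was highest and DTEP lowest, and the DTP and LR ranges overlapped. As a log2 change this was -1.60 (SE 0.16, adjusted p = 1.23e-05) in DTP and -2.67 (SE 0.16, adjusted p = 5.88e-08) in DTEP against Control. TRIM37 was higher in LR than in DTEP at 0.70 (adjusted p = 0.0298), a call lost with only the 6 libraries compared and without any one Control library or DTP replicate 2 or DTEP replicate 1 or 2 or LR replicate 1 or 2 (adjusted p from 0.0536 to 0.286). USP32, a deubiquitinating enzyme, had levels of 275, 272 and 267 (Control), 102, 109.9 and 147 (DTP), 69.8, 92.3 and 94.7 (DTEP) and 108, 126 and 91.9 (LR), and its log2 change in DTEP against Control was -1.67 (adjusted p = 5.50e-06). APPBP2, a substrate receptor of a cullin ligase, had levels of 439, 458 and 385 (Control), 155, 203 and 262 (DTP), 118, 134 and 150.1 (DTEP) and 165, 132 and 113 (LR), at -1.67 (adjusted p = 1.53e-05) in DTEP. RNFT1, a RING finger membrane protein, had the smallest fall among the first 20 members in DTEP, with levels of 52.02, 54.7 and 46.8 (Control), 35.6, 41.6 and 55.4 (DTP), 26.9, 28.5 and 30.8 (DTEP) and 23.7, 19.3 and 18.9 (LR) and a log2 change of -0.81 (adjusted p = 0.00146). An overlapping readthrough transcript covers 20.9% of the exon length of RNFT1.

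PSMC5 (chr17:63827431-63832019), an ATPase subunit of the proteasome's regulatory particle, had the largest rise against Control of all tested members in DTEP and LR on the log2(value + 1) scale. Its levels were 138, 136 and 138 (Control), 181, 180.2 and 148 (DTP), 836, 695 and 433 (DTEP) and 456, 485 and 504 (LR). Control and DTP were low and overlapped with neither DTEP nor LR, and DTEP replicate 3 was below all LR libraries while the other DTEP libraries were above them. Its log2 change came to 2.19 (SE 0.20, adjusted p = 1.86e-06) in DTEP and 1.80 (SE 0.20, adjusted p = 8.08e-06) in LR against Control, 4.77-fold and 3.51-fold higher. By this scale 1 member, PSMC5, rose by more than 4-fold in DTEP, beside 4.43% of all genes tested. Without DTEP replicate 1 the count was 0, and with a pseudocount of 0.5 or 0.1, edgeR or DESeq2 it was 2. PSMC5 overlaps FTSJ3 on the opposite strand over 15.3% of its exon length.

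Among members in transcription and chromatin, TBX2 went from its highest level at day 9 to near 0 in LR. TBX2 (chr17:61399843-61409466), a T-box repressor of senescence genes, had levels of 6.44, 6.14 and 6.57 (Control), 24.1, 18.5 and 16.8 (DTP), 1.48, 0.783 and 0.0561 (DTEP) and 0, 0.111 and 0.0969 (LR). DTP was highest and did not overlap Control, and DTEP replicate 3 held 1 read and the LR libraries 0 to 2 reads. The log2 change was 1.48 (SE 0.26, adjusted p = 5.52e-04) in DTP against Control, a call lost with a pseudocount of 0.1 (adjusted p = 0.0587), and -3.62 (SE 0.26, adjusted p = 2.26e-07) from DTP to DTEP. Control was 92.3 times the LR level, with an exact 95% interval of 35.8 to 340.3 that covers counting error only. YPEL2, a nuclear protein of the yippee family, had levels of 82.3, 85.3 and 82.03 (Control), 111, 132 and 176 (DTP), 31.7, 19.7 and 25.4 (DTEP) and 20.4, 21.3 and 20.1 (LR). It rose in DTP at 0.71 (SE 0.19, adjusted p = 0.00714) and then fell to DTEP at -2.40 (SE 0.19, adjusted p = 4.52e-07). BCAS3, a cytoskeletal and transcriptional cofactor, had levels of 60.8, 62.4 and 65.1 (Control), 102, 105 and 105 (DTP), 26.98, 26.4 and 32.6 (DTEP) and 31.5, 29.3 and 29.1 (LR), and moved likewise at 0.72 (adjusted p = 3.83e-04) in DTP against Control and -1.83 (SE 0.12, adjusted p = 1.12e-07) from DTP to DTEP. For YPEL2, BCAS3 and TBX2 the DTP libraries were above all other libraries.

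INTS2 and MED13, neighbours at the turn of the segment, fell at day 9 and did not pass against Control in DTEP or LR. INTS2, a subunit of the Integrator complex, had levels of 48.3, 50.1 and 46.9 (Control), 9.55, 14.6 and 19.9 (DTP), 29.6, 46.3 and 65.6 (DTEP) and 61.3, 72.8 and 58.8 (LR). DTP was lowest, DTEP ranged on both sides of Control, and LR did not overlap Control. The log2 values against Control were -1.71 (SE 0.28, adjusted p = 3.46e-04) in DTP and 0.40 (adjusted p = 0.234) in LR. In DTEP it was -0.11, with an interval of -0.72 to 0.50, and it turned to 0.18 without DTEP replicate 1. MED13, which links the Mediator complex to its kinase module, had levels of 262, 274 and 247 (Control), 60.8, 71.6 and 103 (DTP), 122, 186 and 251 (DTEP) and 336, 377 and 296 (LR). The fitted log2 values were -1.75 (SE 0.24, adjusted p = 1.17e-04) in DTP, -0.54 (adjusted p = 0.0738) in DTEP and 0.36 (adjusted p = 0.217) in LR against Control. MED13 was higher in LR than in DTEP at 0.90 (adjusted p = 0.0466), a call lost with no filter or no trend or only the 6 libraries compared or the replicate block and without any one Control library or DTP replicate 1 or 2 or DTEP replicate 1 or 2 or any one LR library (adjusted p from 0.0504 to 0.301). SMARCD2 (chr17:63832081-63842685), a subunit of SWI/SNF chromatin remodelling complexes, had levels of 183, 187 and 192 (Control), 142, 138 and 124 (DTP), 861, 714 and 621 (DTEP) and 554, 633 and 626 (LR). DTP was below Control, and DTEP and LR were both above it without overlap. As a log2 change this was -0.48 (SE 0.14, adjusted p = 0.0105) in DTP, 1.95 (SE 0.14, adjusted p = 1.99e-07) in DTEP and 1.68 (SE 0.14, adjusted p = 5.49e-07) in LR against Control.

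**Figure D4:**
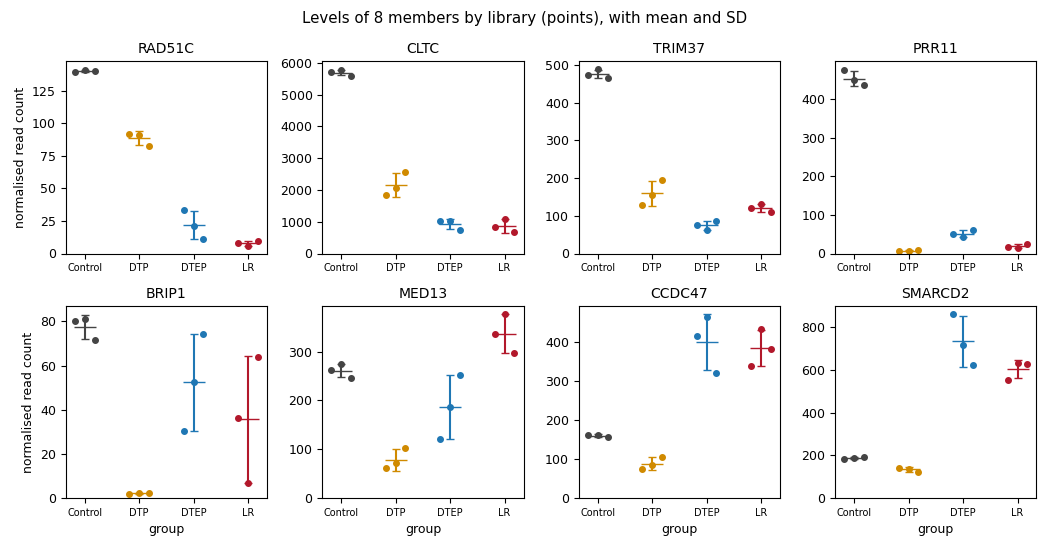
Normalised read counts (vertical axis, from 0) of 8 members are shown in the 4 groups (horizontal axis). Points are the 3 libraries of a group, and the bar with whiskers is their mean and SD. RAD51C, CLTC, TRIM37 and PRR11 are highest in Control, BRIP1 and MED13 are lowest in DTP, and CCDC47 and SMARCD2 are highest in DTEP and LR.

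Members in RNA processing and translation split by position as well. SMG8 (chr17:59210035-59215230), a regulator of the nonsense-mediated decay kinase SMG1, had levels of 314, 316 and 326 (Control), 298, 323 and 353 (DTP), 55.98, 32.6 and 22.2 (DTEP) and 21.7, 23.4 and 20.7 (LR). Control and DTP overlapped, and both were far above DTEP and LR. The log2 difference in DTP against Control was 0.02 (adjusted p = 0.947), with an interval of -0.50 to 0.55, while the change from DTP to DTEP was -3.20 (SE 0.24, adjusted p = 3.51e-07) and that in LR against Control was -3.80 (SE 0.24, adjusted p = 7.87e-08), 14.5-fold lower. PRR11 and SMG8, whose transcribed regions lie 3.33 kb apart, thus had day 9 changes of -5.76 and 0.02. DHX40, a DEAH-box RNA helicase, had a course like that of SMG8 with levels of 323, 324 and 307 (Control), 286, 319 and 378 (DTP), 119, 101 and 101 (DTEP) and 80.9, 65.2 and 82.9 (LR), at 0.03 (adjusted p = 0.86) in DTP and -1.57 (SE 0.14, adjusted p = 1.54e-06) in DTEP against Control. PTRH2, a mitochondrial peptidyl-tRNA hydrolase, had levels of 122, 129 and 131 (Control), 187, 189 and 158 (DTP), 92.8, 62.4 and 29.1 (DTEP) and 32.1, 41.5 and 36.1 (LR), and fell from DTP to DTEP at -1.66 (SE 0.30, adjusted p = 4.07e-04).

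At the other end, DDX42, a DEAD-box helicase of the spliceosome, had levels of 223, 220.4 and 230.2 (Control), 243, 251 and 278 (DTP), 388, 382 and 424 (DTEP) and 463, 432 and 629 (LR). DTEP and LR were above Control and DTP. LR was above DTEP without overlap, but this difference did not pass by limma, at 0.33 on the log2 scale (adjusted p = 0.127). Its log2 change came to 0.82 (SE 0.14, adjusted p = 3.92e-04) in DTEP and 1.16 (SE 0.14, adjusted p = 2.27e-05) in LR against Control. FTSJ3, which modifies ribosomal RNA during ribosome assembly, had levels of 78.3, 83.5 and 82.3 (Control), 114, 115 and 105 (DTP), 332, 280.3 and 198 (DTEP) and 223, 289 and 269 (LR), at 1.69 (SE 0.17, adjusted p = 4.96e-06) in DTEP against Control. METTL2A, a transfer RNA methyltransferase, had levels of 18.03, 16.9 and 19.2 (Control), 13.6, 15.4 and 15.1 (DTP), 57.3, 45.4 and 35.3 (DTEP) and 34.9, 37.6 and 40.8 (LR), at 1.28 (SE 0.17, adjusted p = 5.32e-05) in DTEP and 1.03 (adjusted p = 2.66e-04) in LR. METTL2A has a near-identical paralog, METTL2B, on another chromosome, so its counts are uncertain.

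Of the members in membranes and their traffic, CLTC was the most abundant gene of the segment in Control. CLTC (chr17:59619895-59696956), the heavy chain of clathrin, which coats endocytic vesicles, had levels of 5708, 5789.8 and 5602 (Control), 1847, 2055 and 2574 (DTP), 1036, 1016 and 752 (DTEP) and 831, 1101 and 665 (LR). Control was highest, DTP came next and DTEP and LR overlapped. The log2 change was -1.41 (SE 0.22, adjusted p = 2.60e-04) in DTP and -2.62 (SE 0.22, adjusted p = 1.01e-06) in DTEP against Control, and LR stood at -2.75 (adjusted p = 5.45e-07), 6.58-fold lower. VMP1, a membrane protein of autophagosome formation, had levels of 575, 604 and 588 (Control), 619, 637 and 669.8 (DTP), 342, 285 and 179 (DTEP) and 173, 262 and 180.4 (LR), with -1.30 (SE 0.22, adjusted p = 2.12e-04) from DTP to DTEP. GDPD1, a lysophospholipase, had low levels of 9.75, 10.1 and 9.92 (Control), 8.66, 8.19 and 11.2 (DTP), 3.3, 2.97 and 2.19 (DTEP) and 1.9, 1.22 and 1.7 (LR), with -1.44 (SE 0.18, adjusted p = 2.11e-05) from DTP to DTEP.

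CCDC47 (chr17:63745255-63773597), a protein of the endoplasmic reticulum that aids membrane protein insertion, had levels of 163, 161 and 156 (Control), 74.5, 85.2 and 107 (DTP), 414, 463 and 321 (DTEP) and 339, 432 and 381 (LR). DTP was below Control, and DTEP and LR were above it, all without overlap. Its log2 change was -0.86 (SE 0.17, adjusted p = 0.00114) in DTP against Control and 2.16 (SE 0.17, adjusted p = 4.11e-07) from DTP to DTEP. CYB561, a membrane cytochrome that moves electrons from ascorbate, had levels of 137, 141 and 142 (Control), 119, 119 and 99.4 (DTP), 381, 377 and 322 (DTEP) and 305, 432 and 301 (LR), at 1.35 (SE 0.15, adjusted p = 1.13e-05) in DTEP and 1.28 (adjusted p = 1.51e-05) in LR against Control.

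TANC2 and MRC2 differed between libraries of one group. TANC2, a scaffold protein of synapses, had levels of 51.9, 54.7 and 50.4 (Control), 38.6, 41.4 and 49.4 (DTP), 17.7, 32.9 and 11.8 (DTEP) and 19.3, 26.7 and 85.9 (LR). DTEP was below Control, but LR replicate 3 was above all Control libraries while the other LR libraries were below them. In DTEP against Control the log2 change was -1.41 (adjusted p = 0.0189), a call lost without Control replicate 2 or DTEP replicate 3 (adjusted p from 0.0513 to 0.0649), and without DTEP replicate 3 it was -1.08. MRC2, an endocytic collagen receptor, had levels of 0.138, 0.217 and 0.233 (Control), 0.261, 0.0987 and 0.0576 (DTP), 6.84, 3.5 and 0.449 (DTEP) and 0.676, 0.443 and 6.78 (LR). It passed the filter only through DTEP replicates 1 and 2 and LR replicate 3, so a difference was built into its inclusion, and its rise in DTEP against Control, 1.64 (adjusted p = 0.0393), was lost with no filter or the replicate block and without any one Control library or any one DTP library or DTEP replicate 1 or 2 (adjusted p from 0.0514 to 0.151). TANC2 and MRC2 were both highest within LR in replicate 3.

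HEATR6 and LIMD2 have less settled roles. HEATR6, a HEAT repeat protein, had levels of 182, 185 and 183 (Control), 169, 183 and 213 (DTP), 52.6, 49.6 and 62.9 (DTEP) and 56.5, 59.2 and 55.6 (LR). Control and DTP overlapped, and so did DTEP and LR, with a log2 change of -1.76 (SE 0.13, adjusted p = 2.24e-07) from DTP to DTEP and -1.67 (adjusted p = 3.10e-07) in LR against Control. LIMD2, a LIM domain protein, had low levels of 1.66, 2.12 and 2.19 (Control), 0.992, 1.33 and 1.44 (DTP), 1.82, 1.69 and 2.36 (DTEP) and 2.24, 2.66 and 2.33 (LR), and its log2 difference in DTEP against Control was -0.02, with an interval of -0.34 to 0.30. Of the members not tested, CA4, carbonic anhydrase IV, had 0 reads in all 12 libraries, which allows a level of up to 0.124 to 0.173 in each. TBX4, a T-box factor of limb and lung, had 0 to 3 reads per library, and NACA2, a retained copy of NACA, had 0 to 4.

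The members include 5 pairs that start head to head within 1000 bases on opposite strands. PTRH2 and VMP1, 224 bases apart, had log2 changes of -1.19 and -1.18 in DTEP and of -1.78 and -1.54 in LR against Control. TUBD1 and RPS6KB1, 178 bases apart, had -1.22 and -1.59 in DTEP and -1.85 and -1.82 in LR. The ratio of VMP1 to PTRH2 was 4.49 to 4.72 over the Control libraries, 3.31 to 4.24 over DTP, 3.69 to 6.16 over DTEP and 4.99 to 6.33 over LR, so DTP lay below Control and LR above it. The ratio of RPS6KB1 to TUBD1 was 3.57 to 3.92 over Control, 2.82 to 3.25 over DTP, 2.13 to 4.17 over DTEP and 3.41 to 4.31 over LR, so DTP alone lay apart from Control. CCDC47 and DDX42, 203 bases apart, differed in course, since DTP was at -0.86 (adjusted p = 0.00114) for CCDC47 and 0.19 (adjusted p = 0.277) for DDX42, and the step from DTP to DTEP was 2.16 and 0.63. The ratio of DDX42 to CCDC47 was 1.37 to 1.48 over the Control libraries and 2.61 to 3.26 over those of DTP. DTEP libraries had ratios of 0.824 to 1.32 and LR libraries of 0.999 to 1.65. FTSJ3 and PSMC5, whose starts overlap by 232 bases, had 1.69 and 2.19 in DTEP. The ratio of PSMC5 to FTSJ3 was 1.63 to 1.76 over Control, 1.41 to 1.60 over DTP, 2.19 to 2.52 over DTEP and 1.68 to 2.04 over LR, and DTEP lay above the other groups. No test of the difference between partners was made.

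**Figure D5:**
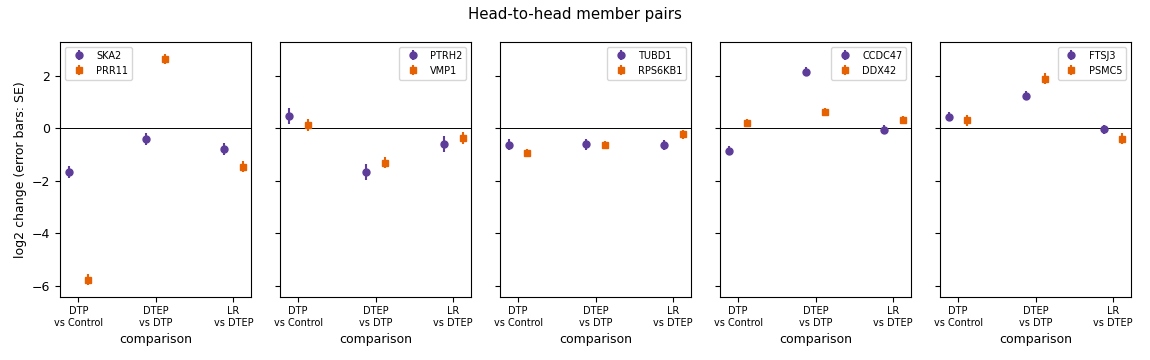
The log2 change (vertical axis, bars are SE) of both genes of each head-to-head pair is given for 3 successive comparisons (horizontal axis), with 1 panel a pair. SKA2 and PRR11 part widely in DTP against Control (-1.66 and -5.76), CCDC47 and DDX42 part by less, and FTSJ3 and PSMC5 lie apart from DTP to DTEP (1.24 and 1.89).

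Per kb of canonical transcript, the order of levels between members changed. In Control the highest mean level per kb was that of CLTC at 681, followed by PTRH2 at 174, VMP1 at 159.8, SKA2 at 133, TRIM37 at 106 and PSMC5 at 103. In LR it was PSMC5 at 362, followed by SMARCD2 at 245, DDX42 at 128, CYB561 at 118, CCDC47 at 117 and CLTC at 103. Neighbours in these orders were not tested against each other. Reads were counted over whole genes, and merged exon lengths were 4.74 kb for PTRH2 and 4.28 kb for PSMC5. Their canonical transcripts are 0.731 and 1.33 kb, so places in these orders depend on the length used. Of these 6 in LR, only CLTC lies among the first 20 tested members, whereas of the 6 in Control only PSMC5 lies beyond them.

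The segment holds 6 tested genes that are not members. In DTEP against Control PPM1E, in the first Mb, was at -2.35 (adjusted p = 2.66e-07), MIR4737 at -0.41 (adjusted p = 0.0264) and TBX2-AS1 at -1.28 (adjusted p = 3.47e-05). MIR4737 (chr17:60043025-60043105) lies within exon sequence of HEATR6 and had group means of 0.34 to 1.33, so its reads may be those of HEATR6. LOC101927755 lies between RNFT1 and HEATR6, among members that fell, and rose at 0.77 (adjusted p = 0.00645). ACE, between CYB561 and DCAF7, rose at 3.17 (adjusted p = 3.31e-06), and TACO1 did not pass at 0.40 (adjusted p = 0.0958). The means of LOC101927755 were 0.32 (Control), 0.68 (DTP), 1.33 (DTEP) and 0.63 (LR), and those of ACE 0.63, 0.12, 14.2 and 13.6. Both passed the filter only through DTEP or LR libraries, so a difference was built into their inclusion. The same limit holds for PPM1E, MIR4737 and TBX2-AS1, which passed only through Control or DTP libraries. PPM1E shares exon sequence with TRIM37 on the opposite strand, over 5.18% of the exon length of TRIM37. TBX2-AS1, which lies beside TBX2, rose in DTP against Control at 1.71 (adjusted p = 9.80e-06).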

How the data were processed

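Per the labels and the study's methods, the authors used a stranded mRNA kit and the Rsubread package for alignment (hg38) and for counting over RefSeq genes, at default settings, which ignore strand. The deposited table holds a normalized signal, made with edgeR as CPM with a TMM-corrected library size. All 199680 deposited signal values above 0 (100%) were whole multiples of a single read within 1e-06, so read counts were recovered. limma 3.58.1 (R 4.3.3) was run on log2(signal + 1) of all 12 libraries, without covariates and with a trend in the variance, over the 13794 genes that reached a value of 1 in 3 or more libraries. Tests were two-sided, with Benjamini-Hochberg adjustment per comparison over 5 comparisons. Groups came from sample titles. Alternatives were other pseudocounts, filters, scalings, a replicate block, edgeR 4.0.16, DESeq2 1.42.0 and leaving out each library. Steps were tested on simulated data. Intervals are 95% and cover the spread between libraries, and limits of 3 reads reflect counting error alone, as no molecular identifiers were used.

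The members, the lists and the rule for named genes (all members, with each library's value for the largest and smallest changes, head-to-head pairs and those that moved against the majority) were chosen with earlier results of these data known. Coordinates and promoter windows are from RefSeq (GRCh38.p14), with the window nearest the gene's start. Strand, transcript length and exon overlap are from GENCODE on the same build. Replicates of a group differed by more than sampling noise (a chi-square per gene of 1.71 or more).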

Additional observations from a re-analysis of the deposited data

How the results depend on the processing

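Over 123 passed log2 values of the members and up to 22 other fits of each, which include 12 that leave out 1 library, 100 values stayed past the threshold in every fit, 23 lost it in at least 1 and 0 changed sign. The counts of members that fell or rose in DTP against Control, DTEP against DTP, DTEP against Control and LR against Control stayed within 1.5 times their value in each fit. The step from DTEP to LR was the weakest: its 2 higher members became 1 with no filter, 1 with no trend, 0 with only the 6 libraries compared, 1 with the replicate block and 4 with DESeq2, and its 2 lower became 0 with only the 6 libraries, 6 with edgeR and 8 with DESeq2, while leaving out a library gave 0 to 6 higher and 1 to 13 lower. The cause was not tested. By more than 4-fold, edgeR and DESeq2 each gave 1 lower member in that step in place of 0, and 1 higher in LR against Control in place of 0. The 1 member higher by more than 4-fold in DTEP against Control became 2 at a pseudocount of 0.5 or 0.1, 2 with edgeR and 2 with DESeq2, and 0 to 3 without single libraries. A limit of 2-fold (a log2 change of 1) in place of 4-fold gave 1 higher and 9 lower in DTP against Control, 11 and 13 in DTEP against DTP, 2 lower in LR against DTEP, 9 and 20 in DTEP against Control and 9 and 21 in LR against Control. Shares of all genes tested were not counted at this limit or in the other fits. These counts therefore describe the members alone and cannot be set against all genes. The replicate numbers did not pair the libraries, since deviations of same-numbered libraries correlated from -0.441 to 0.359, and with the number as a block the counts were otherwise within 1 of the values given. Changes of sign in DTEP against Control touched only values that had not passed. DCAF7 turned to -0.00625 under median-of-ratios scaling and ranged from -0.12 to 0.17 without single libraries, INTS2 from -0.38 to 0.18 and LIMD2 from -0.11 to 0.046. That scaling shifted the all-gene median by -0.101 in DTEP against DTP and by at most 0.053 in size elsewhere. Depth limits TBX2 in LR, TBX4, NACA2 and CA4, which are at 0 to 4 reads per library.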
